A study of Mus musculus with 9 samples.

Results

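The control striatal line, STHdhQ7/Q7, carries 7 glutamines in the first exon of huntingtin on both alleles and was described here from all 3 of its RNA-seq libraries, which are 3 of the 9 libraries in the study. The other 6 libraries came from the HD-het line, STHdhQ7/Q111, with 7 glutamines on 1 allele and 111 on the other, and from the HD-homo line, STHdhQ111/Q111, with 111 on both, at 3 libraries a line. All 3 lines are immortalized mouse cells of C57/BL6 strain, labelled striatal, from which poly(A) RNA was sequenced without further treatment given in the labels. The paper calls the set knock-in models and derives the control line from wild-type embryos. Since there is 1 line per genotype, a difference of genotype and a difference of line cannot be told apart. The labels do not say whether the libraries of a line came from separate cultures. The p-values below therefore only set a difference between lines against the spread between libraries within lines, which may be technical.

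The striatum is the input nucleus of the basal ganglia, and most of its neurons are medium spiny neurons, GABA-releasing cells that receive cortical glutamate and midbrain dopamine and that are lost in Huntington disease. In the embryo they arise from progenitors of the lateral ganglionic eminence, which pass through an ordered set of transcription factors (Gsx2, the Dlx genes, then Foxp1, Isl1, Ebf1 and Bcl11b) before dopamine receptors and neuropeptides appear. STHdh cells were taken from embryonic striatal primordia and immortalized with a temperature-sensitive large T antigen, and they divide in culture.

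The 3 control libraries held 32280309, 33602679 and 29507665 counts over 36410 listed genes. A gene was taken as present when it reached at least 1 normalized CPM (counts per 1000000 counts of the library, scaled by TMM) in each of the 3 libraries, as at the floor when it had at most 3 counts in each, and as low otherwise. The floor of 3 counts corresponds to between 0.0892 and 0.101 CPM. The counts are whole numbers, but whether they are rounded RSEM estimates is not stated, and floors and counting intervals take them as reads. By this rule 11425 genes (31.4%) were present, 2726 were low and 22259 (61.1%) were at the floor, of which 19877 had 0 counts in all 3 libraries. Of the 20936 listed protein-coding genes, 11063 (52.8%) were present. The median present gene stood at 36.7 CPM, 8879 genes reached 10 CPM in every control library, 2461 reached 100 and 74 reached 1000.

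By share of counts, which favours long transcripts, actin and the elongation factors of translation headed the profile, with matrix and adhesion genes after them. Actg1, the gamma cytoplasmic actin, stood first with 6437, 6336 and 6345 CPM, which is 0.637% of all counts. Eef1a1, the factor that brings aminoacyl-tRNA to the ribosome, followed with 5556, 5563 and 6174 CPM, and Vim, the intermediate filament of mesenchymal and progenitor cells, with 5261, 5192 and 5696 CPM. The order of these 3 genes was the same in all 3 libraries. The next genes by mean CPM were Eef2 (4583 ± 39.9, SD, n = 3), the matricellular Thbs1 (4463 ± 574), fibronectin Fn1 (3983 ± 609), the actin crosslinker Flna (3842 ± 294), non-muscle myosin Myh9 (3690 ± 145) and the chaperones Hspa8 (3349 ± 78.1) and Hsp90ab1 (3208 ± 177). The rest of the 25 highest included Pkm of glycolysis, the integrin subunit Itgb1, Pabpc1, Actb, the collagen chain Col1a1, smooth muscle actin Acta2, Ctgf, Lgals1, Ncl, Atp5b, Plec, Ahnak, Rplp0 and Cfl1, which lay between 2755 and 1642 CPM. The 25 together took 7.72% of the counts and the 1000 highest genes 49.7%.

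**Figure D1:**
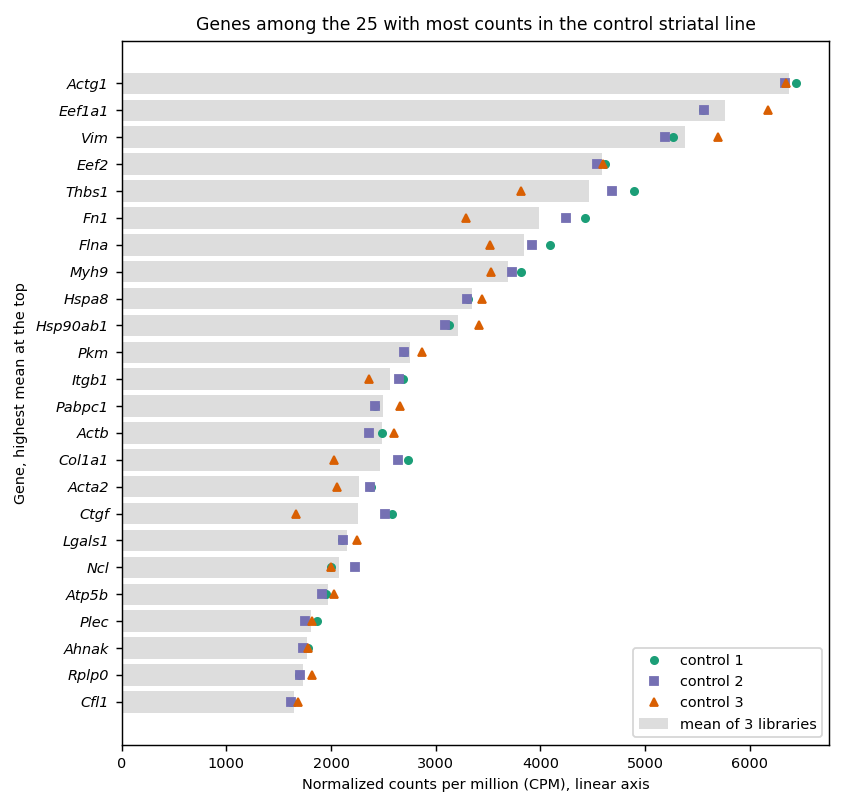
Normalized CPM (linear axis) of genes among the 25 with the highest mean in the control line; grey bars give the mean and the symbols the 3 libraries. Actg1 lies between 6336 and 6437 CPM in every library, whereas Thbs1, Fn1, Col1a1 and Ctgf are lower in control 3 than in the other libraries.

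A long transcript yields more counts than a short one at the same number of molecules, and so levels were also taken per kilobase of exon and scaled to the same sum in every library, as for CPM (length-scaled CPM). On this scale Actg1 (9188 ± 176, SD, n = 3) and Lgals1, the galectin-1 gene (9143 ± 211), could not be separated beyond their spread, and Eef1a1 (8855 ± 411) lay within the same range. S100a4, a calcium-binding protein gene of motile and fibroblast-like cells, ranked 4th per length at 5398 although it ranked 110th by CPM. Eef2, the ribosomal protein genes Rplp1, Rps3a1, Rpl8, Rps15, Rpl19 and Rplp0, then Vim (4347), Hsp90ab1, Acta2 (3967 ± 381) and S100a6 made up the other genes of the 15 highest. Of the 25 highest by CPM, 12 remained among the 25 highest per length and 22 among the 100 highest. The exceptions were Ncl, Plec and Ahnak, at ranks 168, 422 and 495. How reads were shared among near-identical copies, such as the actins or the alpha-tubulins, and with their pseudogenes was not stated, so single members of such families are uncertain.

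The 5'-flanking sequence of Actg1 is shown because it is the highest gene on both scales and because its window holds a CArG box, the element that serum response factor binds. Actg1 lies on the reverse strand of chromosome 11 (120345690 to 120348542, GRCm38, GENCODE). The window, chr11:120348446-120348745 on the reverse strand of GRCm38.p6 in RefSeq, covers 250 bases before to 50 after the start and is written 5′ to 3′ with the CArG box, which starts at position -90, in capitals.
Actg1: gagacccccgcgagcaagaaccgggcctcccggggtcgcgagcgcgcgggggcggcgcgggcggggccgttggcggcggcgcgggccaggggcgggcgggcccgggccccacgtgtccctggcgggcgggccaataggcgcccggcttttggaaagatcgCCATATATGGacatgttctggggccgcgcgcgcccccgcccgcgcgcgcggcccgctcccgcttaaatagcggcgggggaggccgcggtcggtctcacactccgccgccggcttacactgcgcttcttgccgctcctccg
Of the 24402 listed genes with such a window, 1.59% held a CArG box on either strand, against 4 of 41 cytoskeleton genes (9.76%) and 2 of the 79 windows of the 100 highest genes, those of Actg1 and Vcl. The motif of TEAD factors, GGAATG on either strand, stood in 14.4% of all windows, in 31.7% of those of cytoskeleton genes and in 16.5% of those of the 100 highest genes. The AP-1 motif TGANTCA was found in 7.81% of all windows and 4.44% of those of present genes. These matches describe the letters of the windows and do not show binding.

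Every member of the lists for the cytoskeleton (48 genes), glycolysis (14), translation factors (17) and chaperones (21) was present. These lists were chosen with earlier results of these data known, so their full presence is not a result about them. The cytoskeleton list, led per length by Actg1, Vim, Acta2, S100a6, Actb and S100a11, took 5.83% of the counts and held 22 of the 100 highest genes. Translation factors took 2.62%, chaperones 2.01% and glycolysis genes 0.788%, the last led by Pkm, Pgam1 and Pgk1. Of 86 ribosomal protein genes 83 were present, with 3.77% of the counts, while Rpl39l and Rps4l were at the floor and the muscle-type Rpl3l was low. This list was taken by symbol and, here and below, includes Rpl32l, a processed pseudogene in GENCODE.

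The line carried a broad mesenchymal and fibroblast-like programme. Of 31 fibroblast and mesenchymal genes 26 were present, and together they took 2.53% of all counts. Ctgf, a matricellular gene also called Ccn2, stood at 2586, 2520 and 1662 CPM and Cyr61, its relative, at 1212, 1205 and 1118 CPM. Col1a1, the alpha-1 chain of type I collagen, stood at 2733, 2635 and 2027 CPM. In all 3 of these genes control 3 was the lowest library. Among the highest members per length were S100a4 (5398 length-scaled CPM), Vim, Ctgf (3028), Cyr61 and Sparc. The exceptions were Fap, Lum, Thy1 and Pi16, all at the floor, and Dpt with 21, 14 and 21 counts. Lum encodes the collagen-binding proteoglycan lumican and Thy1 a surface protein of many fibroblasts and neurons. The extracellular matrix list overlaps with this list, and 29 of its 30 members were present, Lama4 alone being at the floor with 1, 0 and 2 counts. Meningeal fibroblast genes were less complete, with 3 of 8 present (Ogn, Foxc2 and Foxc1) and Aldh1a2, Slc6a13 and Slc22a6 at the floor.

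Of 16 pericyte and smooth muscle genes 9 were present. Acta2 had 2384, 2374 and 2056 CPM and Tagln, an actin-binding protein of smooth muscle, 291.7, 297.1 and 227.2 CPM. Pdgfrb, Mcam, Cspg4 and Myh11, the smooth muscle myosin heavy chain, had means of 92.7, 37.1, 76.8 and 28.5 CPM. The genes that mark brain pericytes most closely, Rgs5, Kcnj8, Abcc9, Vtn and Higd1b, were all at the floor.

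Factors that act in mesenchyme were numerous, with 24 of 32 mesenchymal transcription factors present. Prrx1, a homeobox gene of limb and craniofacial mesenchyme, had 217.9, 219.3 and 185.1 CPM. Twist2, a basic helix-loop-helix factor, had 103, 106.3 and 103.9 CPM, and Scx, the factor of tendon progenitors, 77.9, 76.4 and 82.4 CPM. Per length the list was led by Scx (151 length-scaled CPM), Twist2 (126), Prrx1 (71.9), Twist1 (66.5), Foxf1 (59.8) and Prrx2 (58.9). Tcf21, Meox2 and Hand2 had 0 counts in all 3 libraries, and Meox1 and Barx1 were at the floor.

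Neural progenitor genes were present in part in the same RNA. Of 18 neural progenitor and radial glia genes 11 were present (61.1%), beside 52.8% of all listed protein-coding genes. With shares this close, the count is not read as a result about the list. The summed level of the list was 1412, 1402 and 1364 CPM, mostly from Nes and Cdh2. Nes, the intermediate filament of neural stem cells, had 544.4, 548.1 and 486.3 CPM. Cdh2, N-cadherin, had 404.1, 399.6 and 415.5 CPM, and Sox2, a factor of neural stem cells, 121.5, 121.7 and 141.1 CPM. In Nes control 3 was the lowest library, and in Cdh2 and Sox2 it was the highest. The receptor Notch1 (109 ± 13.9, SD, n = 3), the RNA-binding protein gene Msi2 (89.3 ± 2.20), the forebrain factors Lhx2 (52.2 ± 0.873), Pax6 (32.1 ± 0.605) and Emx2 (17.7 ± 1.24), the Notch target Hes1 (21.9 ± 4.07), Msi1 and Slc1a3 completed the present members, in CPM. Other genes of radial glia were at the floor or low. Hes5 and Ptprz1 had 0 counts in all 3 libraries, Nr2e1 had 1, 0 and 0, Prom1 had 2, 1 and 1 and Sox3 had 3, 3 and 2, while Sox1 (15, 20 and 22 counts) and Fabp7 (15, 14 and 9 counts) were low.

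Forebrain and striatal transcription factors were present in part. Foxp1, a factor of medium spiny neurons and of many other cells, had 95.7, 97.7 and 87.9 CPM, and Meis2, a homeobox gene of the ganglionic eminences, 50.3, 45.4 and 51.9 CPM. Of 24 striatal lineage factors 10 were present, among them Ebf1 (23.6 ± 1.26 CPM), Dlx2 (16.2 ± 0.635), Zfp503 (12.3 ± 0.773), Dlx1 (10.4 ± 0.964), Sp8 (9.47 ± 0.777), Meis1 and Lhx6 (4.71 ± 0.263). The Dlx genes divided by pair, with Dlx1 and Dlx2 present and Dlx5 (1, 1 and 0 counts) and Dlx6 (2, 0 and 0 counts) at the floor. The progenitor factors upstream of them were at or close to the floor, with 0 counts for Gsx2 and 3, 10 and 6 for Gsx1. Of the factors of postmitotic medium spiny neurons, Isl1, Ikzf1 and Rarb had 0 counts in every library, Bcl11b (also called Ctip2) had 9, 4 and 3 and Foxp2 had 3, 4 and 2. Sp9, Six3 and Lhx8 were low, and Nkx2-1, the factor of the medial ganglionic eminence, had 0 counts.

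The genes that define a mature medium spiny neuron were absent or near the floor, which goes against reading the label striatal as striatal neuron. Of 24 such genes 3 were present, all at low levels, and the list summed to 8.93, 9.55 and 8.35 CPM in the 3 libraries. The olfactory-type G protein subunit Gnal had 2.61, 2.74 and 2.60 CPM, the phosphodiesterase Pde10a 2.30, 2.38 and 1.52 CPM and the enkephalin precursor Penk 1.03, 1.37 and 1.45 CPM. Both main dopamine receptors, Drd1 and Drd2, had 0 counts in every library, as did the dynorphin precursor Pdyn, the receptors Gpr6 and Oprm1, the GABA-synthesising enzyme Gad1 and the vesicular GABA transporter Slc32a1. A count of 0 allows a level of up to 0.0933, 0.0892 and 0.101 CPM in the respective libraries, for counting error only. Ppp1r1b, whose product DARPP-32 is the standard marker of these neurons, had 2, 3 and 2 counts. Tac1, Arpp21 and Scn4b were also at the floor. Adora2a, Rgs9, Rasd2, Adcy5, Ptpn5, Rasgrp2, Cnr1, Chrm4 and Gad2 were low, with no library above 19 counts. In bulk RNA a few cells with many transcripts cannot be told apart from many cells with few, here and in the other lists.

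**Figure D2:**
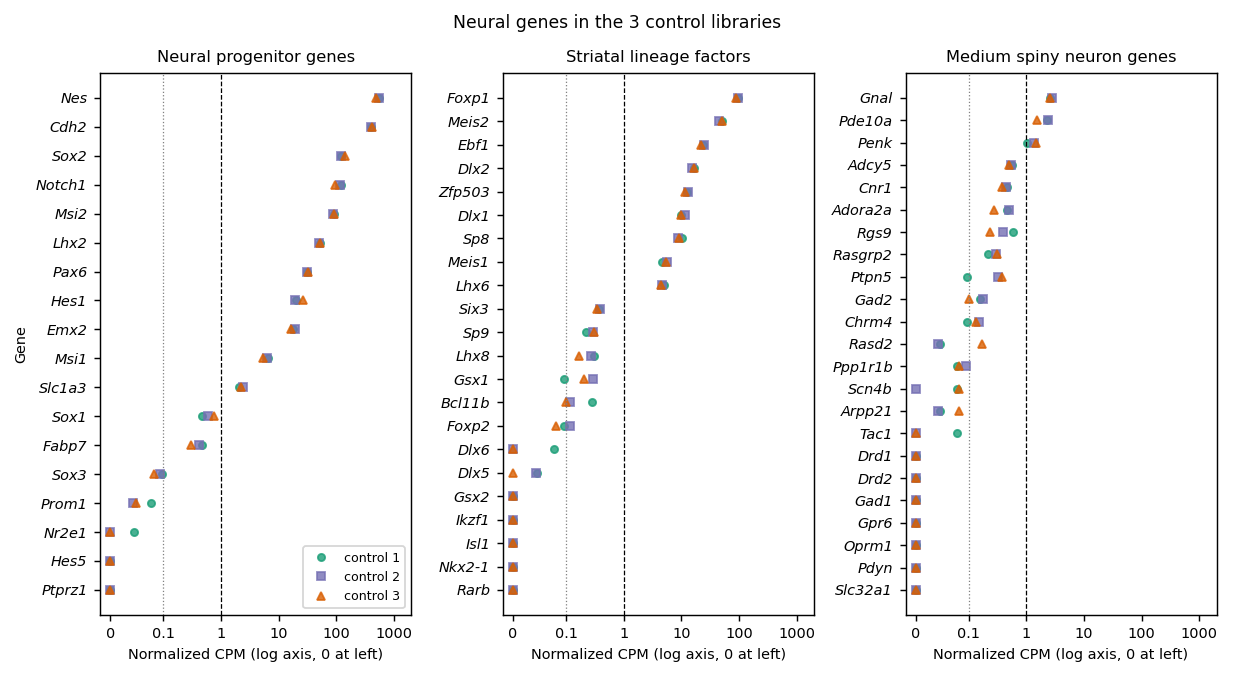
Normalized CPM (log axis) of neural progenitor genes, striatal lineage factors and medium spiny neuron genes in the 3 control libraries; the dashed line marks 1 CPM, the dotted line 0.1 CPM, near the level of 3 counts, and 0 counts are drawn at the left edge. Progenitor genes reach from Nes at 526 CPM down to 0, Foxp1 has a mean of 93.8 CPM among the striatal factors, and the highest medium spiny neuron gene by CPM, Gnal, stays at 2.65 CPM.

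General neuronal genes took a middle place, with 14 of 29 present and 9 at the floor. Tubb3, the neuronal beta-tubulin, had 43.4, 43.8 and 40.1 CPM, Map2, a dendritic microtubule protein gene, 66.4, 69.7 and 52.7 CPM and Stmn2, a growth cone protein gene, 57.6, 57.5 and 46.1 CPM. Uchl1 (35.8 CPM), Vamp2 (23.8) and Stx1a (10.4), the latter pair encoding proteins of vesicle fusion, were next per length. The nuclear marker of mature neurons, Rbfox3 (NeuN), had 2, 1 and 0 counts, the synaptic genes Syt1 and Snap25 had 0 in every library, and Nefl, Elavl4 and Dcx were at the floor. Of 22 genes of interneurons and other transmitter systems 1 was present, while Chat, Slc18a3, Pvalb, Sst and Npy had 0 counts and Nos1 had 0, 1 and 0.

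Because progenitor and neuronal genes were read in part and mesenchymal genes nearly in full, the promoter windows of Sox2 (present), Col3a1 (a collagen gene, present at 561.3, 540.7 and 369.7 CPM) and Drd1 (0 counts) are shown, in RefSeq on GRCm38.p6, with each CpG in capitals. The Sox2 window is chr3:34649745-34650044 on the forward strand, that of Col3a1 chr1:45311288-45311587 on the forward strand and that of Drd1 chr13:54055609-54055908 on the reverse strand, the first of its 2 listed starts.
Sox2: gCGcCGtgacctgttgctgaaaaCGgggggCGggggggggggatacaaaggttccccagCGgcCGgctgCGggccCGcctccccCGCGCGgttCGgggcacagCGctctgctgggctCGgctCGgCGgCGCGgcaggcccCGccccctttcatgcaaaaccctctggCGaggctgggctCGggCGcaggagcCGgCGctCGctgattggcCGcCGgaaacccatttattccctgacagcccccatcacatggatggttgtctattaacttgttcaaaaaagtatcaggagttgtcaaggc
Col3a1: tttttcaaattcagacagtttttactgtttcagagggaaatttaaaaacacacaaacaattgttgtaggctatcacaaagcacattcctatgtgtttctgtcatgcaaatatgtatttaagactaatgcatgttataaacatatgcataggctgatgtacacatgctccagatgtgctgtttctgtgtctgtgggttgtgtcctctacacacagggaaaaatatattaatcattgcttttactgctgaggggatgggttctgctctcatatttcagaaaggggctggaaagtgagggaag
Drd1: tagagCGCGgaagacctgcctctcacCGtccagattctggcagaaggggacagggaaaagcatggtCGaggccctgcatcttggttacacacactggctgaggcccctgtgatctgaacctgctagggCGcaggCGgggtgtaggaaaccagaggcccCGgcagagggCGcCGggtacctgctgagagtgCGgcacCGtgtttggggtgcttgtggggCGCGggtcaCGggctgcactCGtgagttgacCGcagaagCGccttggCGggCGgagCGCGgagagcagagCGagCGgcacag
The windows of Sox2 and Drd1 held 27 and 23 CpG and that of Col3a1 held 0. Over all windows the CpG content differed between present and silent genes. The median ratio of observed to expected CpG was 0.789 in the 8935 windows of present genes and 0.227 in the 13574 windows of genes at the floor, and 77.2% against 13.5% lay above 0.6. The lists of medium spiny neuron and of fibroblast and mesenchymal genes ran the other way. The 19 windows of medium spiny neuron genes had a median of 0.704, in a list with 12 of 24 members at the floor and 3 present. The 18 windows of fibroblast and mesenchymal genes, a list largely present, had a median of 0.309 with 5.56% above 0.6. The 14 windows of neural progenitor genes (0.769), the 19 of striatal lineage factors (0.696) and the 20 of mesenchymal transcription factors (0.772) lay near the present genes. The letters TATAAA stood on either strand in 6.31% of the windows of present genes, in 19.3% of those of genes at the floor and in 13.9% of all.

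Among glial genes, 8 of 15 astrocyte genes were present, most of which other cells also use. Gja1, the gap junction protein connexin 43, had 372.6, 370.7 and 324.3 CPM and Glul, glutamine synthetase, 24.4, 24.2 and 25.2 CPM. Sox9, Ndrg2, Slc4a4 and Fgfr3 had means of 17.9, 5.94, 16.4 and 3.50 CPM. The water channel Aqp4 and the genes Gjb6 and Gpc5 had 0 counts, S100b had 2, 0 and 0, and Gfap was low with 6, 4 and 6. Of 18 oligodendrocyte lineage genes Cspg4, Pdgfra and Cnp were present, at 76.8, 5.21 and 6.25 CPM, and the lineage factors Olig1 (0 counts) and Olig2 (0, 0 and 2) were at the floor with Gpr17, Mog, Mag and Mobp.

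Genes of other cell types the culture could hold were present in part, from 0 of 9 blood cell genes to 5 of 12 neural crest and Schwann cell genes. Of 9 blood cell genes 0 were present and of 15 microglia genes 2 were, Tmem119 (13.1 CPM), which mesenchymal bone cells also express, and Cd68 (1.82 CPM). Aif1, Trem2, Tyrobp, C1qa and C1qb had 0 counts and Itgam had 0, 1 and 0. Of 14 endothelial genes, Flt1, a VEGF receptor, stood at 152.7, 153.2 and 147.6 CPM and Egfl7 at 3.81 CPM, whereas Tie1, Cldn5 and Emcn had 0 counts and Pecam1 had 2, 2 and 1. Of 15 epithelial genes the keratins Krt19, Krt5 and Krt8 were present, at 12.8, 8.95 and 2.30 CPM, with Epcam, Cldn3, Cldn4, Cldn7 and Esrp1 at the floor. The ependymal and choroid plexus list had 2 of 7 present, Aqp1 at 164 CPM and Foxj1 at 1.88 CPM, and 0 counts of Ttr, the main transcript of choroid plexus. Pluripotency genes had Sox2 as the single present member of 9, with 0 counts of Pou5f1. Of 8 skeletal and cardiac muscle genes Actc1, Actn2 and Tnnt2 were present at 28.4, 27.8 and 53.8 CPM, and the muscle determination factors Myod1, Myog and Myf5 had 0 counts. Of 12 neural crest and Schwann cell genes 5 were present, Pmp22, Egr2, Tfap2a, Erbb3 and Mitf, with Ednrb at 0 counts.

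**Figure D3:**
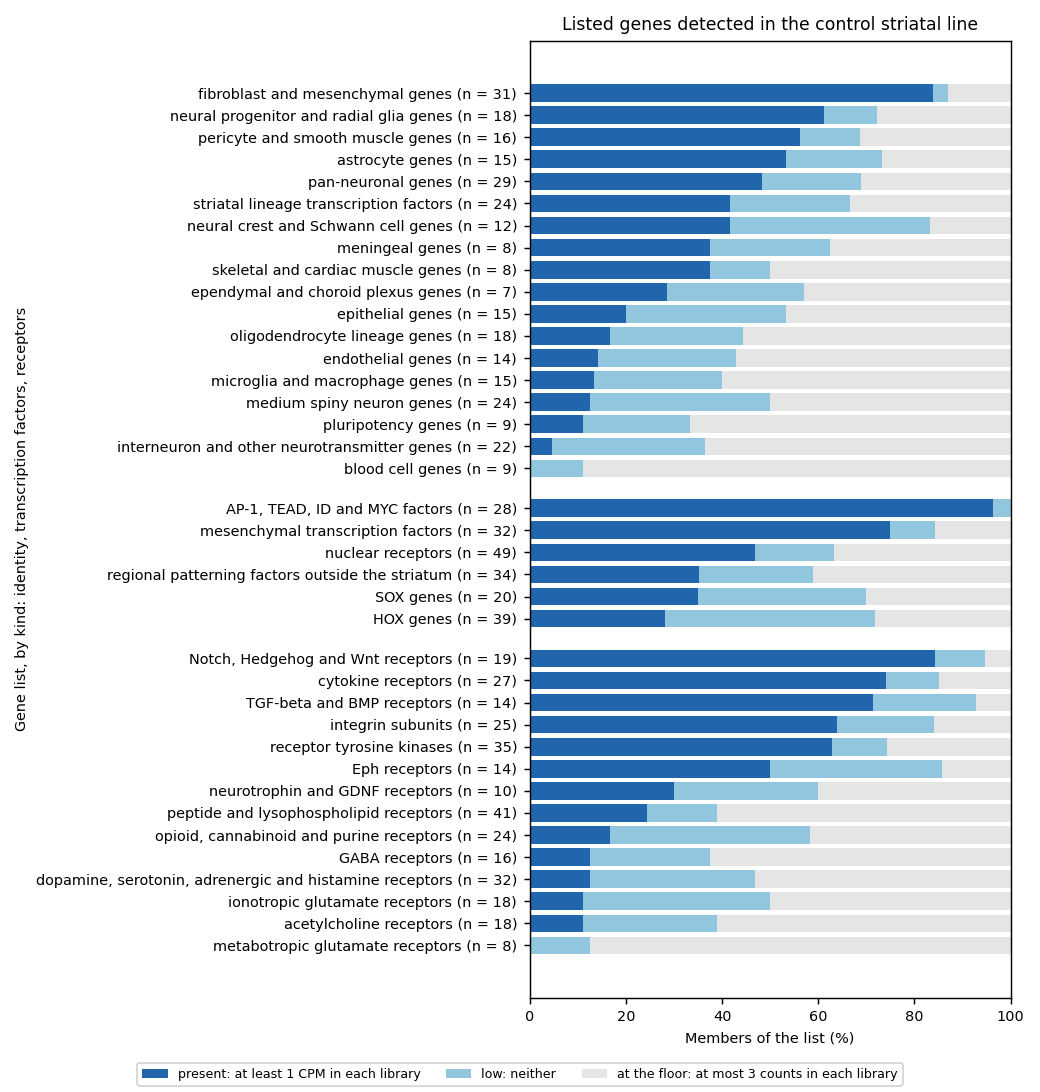
Share of each gene list (%, n members in brackets) that was present, low or at the floor in the control line, grouped as identity genes, transcription factors and receptors. Fibroblast and mesenchymal genes (26 of 31) lead the identity lists, medium spiny neuron genes (3 of 24) lie near their end, and receptors of transmitters lie below receptors of growth factors and matrix.

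Factors that pattern other parts of the body axis were also read. HOX genes, which are used in hindbrain, spinal cord and trunk and lie silent in forebrain, were present for 11 of 39 members. Hoxb9 had 59.9, 57.5 and 64.3 CPM, Hoxb8 21.7, 20.8 and 23.6 CPM and Hoxb6 14.6, 13.2 and 16.6 CPM. Present members came largely from a single cluster, with 9 of 10 in the Hoxb cluster, 1 of 11 in Hoxa (Hoxa10), 1 of 9 in Hoxc (Hoxc6) and 0 of 9 in Hoxd. Hoxb7, Hoxb3 and Hoxb2 were next per length, and Hoxa2, Hoxa13, Hoxc11, Hoxd1 and Hoxd3 were at the floor.

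Of 34 regional factors of other territories 12 were present. Lhx1, a LIM homeobox gene of early kidney and several neuron types, had 56.7, 53.1 and 47.3 CPM, and Pax2, a paired-box gene of midbrain-hindbrain boundary, eye, ear and kidney, had 34.3, 32.9 and 31.6 CPM. Sall1, a zinc-finger gene used in kidney, limb and brain, had 31.6, 32.0 and 32.6 CPM. Zic2 (30.9 CPM), Irx5 (28.1) and Emx2 (17.7) were also among the highest per length. The floor held Otx2, Emx1, Gbx2, Lmx1a, Lmx1b and Foxa1, with 0 counts for Otx2, Emx1 and Lmx1a. Of 20 SOX genes 7 were present, Sox4 (182 CPM), Sox2 (128), Sox11 (69.8), Sox6 (42.9), Sox12 (35.1), Sox21 (19.4) and Sox9 (17.9), and Sox17 and Sox18 of endothelium and endoderm had 0 counts.

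Of 28 AP-1, TEAD, ID and MYC factors 27 were present, and Mycn alone was low at 8, 7 and 5 counts. The present members covered a wide range of levels. Fos, at 1.4, 1.19 and 1.93 CPM, lay just past the threshold, and Mycl and Atf3 had means of 4.87 and 5.50 CPM. Fosl1, an AP-1 subunit, had 227.8, 222.4 and 233.6 CPM, Myc had 272.9, 272.6 and 243.8 CPM and Id1, an inhibitor of differentiation factors, had 94.7, 89.7 and 121 CPM. Junb, Jund and Klf6 were next per length, at 307, 303 and 260 length-scaled CPM. Of 49 nuclear receptors 23 were present, led per length by Nr2f6, the retinoic acid receptor Rarg (103 CPM), Nr2f2 (COUP-TFII, 177 CPM), Nr1d1, Nr4a1 and Nr1d2. Rarb, Nr1i2, Nr1i3 and Hnf4a had 0 counts, and Ppara was at the floor. Rarb, the retinoic acid receptor typical of striatum, was thus silent while Rarg was read.

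Receptors through which striatal neurons receive their inputs were rare. Of 18 ionotropic glutamate receptor genes 2 were present, the kainate subunit Grik5 (51.0, 48.1 and 49.1 CPM) and the NMDA subunit Grin2d (4.04, 3.06 and 3.11 CPM), while Gria1, Grin2a, Grin2b, Grin2c, Grin3a and Grik1 were at the floor. Grin1, the subunit every NMDA receptor needs, had 3, 5 and 2 counts. Of 8 metabotropic glutamate receptors 0 were present, and Grm5, the main striatal group I receptor, had 0 counts. Of 16 GABA receptor genes Gabbr1 (23.9 CPM) and Gabre (4.86) were present, with Gabra5, Gabra6, Gabrb2 and Gabrg1 at 0 counts and Gabra3 at 0, 2 and 0. Of 32 receptors for dopamine, serotonin, adrenaline and histamine 4 were present, among them Adra1d (7.50 CPM), Adra1b (3.16) and Htr1b (2.97). None of the 4 is a dopamine receptor, and Drd1, Drd2, Drd3 and Drd5 had 0 counts in every library. Of 18 acetylcholine receptor genes Chrnb1 and Chrna5 were present, at 9.21 and 2.72 CPM, and the muscarinic Chrm2 and Chrm5 had 0 counts. Of 24 opioid, cannabinoid and purine receptors P2ry2 (37.8 CPM), P2rx4 (16.2), Adora2b (5.72) and P2rx5 (4.67) were present, and Oprm1 had 0 counts.

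Of 41 peptide and lysophospholipid receptors 10 were present and 25 were at the floor. F2r, the thrombin receptor PAR1, had 722.1, 708.4 and 594.8 CPM. Per length it led the list at 776 ± 90.8 length-scaled CPM (SD, n = 3), before the lysophosphatidic acid receptor Lpar1 (41.3 ± 1.97), the sphingosine-1-phosphate receptors S1pr1 (33.3) and S1pr2 (14.95) and Lpar6 (13.1). Of 10 neurotrophin and GDNF receptors Sort1, Gfra1 and Ret were present, at 18.0, 6.89 and 5.68 CPM. The BDNF receptor Ntrk2 was low with 23, 22 and 16 counts, and Ntrk3, Gfra2 and Gfra3 were at the floor.

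Of 35 receptor tyrosine kinases 22 were present. Axl, a receptor for the vitamin K-dependent ligand GAS6, had 897.1, 866.2 and 919.9 CPM, Fgfr1 had 414.7, 393.7 and 400.1 CPM and the hepatocyte growth factor receptor Met had 246.6, 243.7 and 260.2 CPM. These 3 genes were close to equal across the control libraries. Ryk (225 CPM), Ddr1, a collagen receptor (153), and Ptk7 (115) followed per length, and Erbb4, Fgfr4, Mst1r, Kit, Tek and Tie1 were at the floor. Of 14 Eph receptors 7 were present, Epha2 leading per length with 363 ± 27.2 length-scaled CPM (SD, n = 3) before Ephb4 at 56.1. Notch, Hedgehog and Wnt receptors were present for 16 of 19 members, led per length by Notch2, Fzd6, Smo, Fzd2, Fzd1 and Fzd7, with Fzd10 at 0 counts. TGF-beta and BMP receptors were present for 10 of 14 and cytokine receptors for 20 of 27, the latter led per length by Tnfrsf1a, Ifngr1, Il4ra, Il6st, Ifnar1 and Ifngr2. Among TGF-beta receptors Bmpr1a stood at 143 CPM, Tgfbr2 at 99.0 and Tgfbr1 at 56.6. Of 25 integrin subunits 16 were present. Itgb1, the common beta subunit, had 2683, 2652 and 2360 CPM and its fibronectin-binding partner Itga5 766.3, 739.4 and 643.9 CPM, both lowest in control 3. Itgb5, Itga3, Itgav and Itga6 were next per length, and the leukocyte subunits Itgal, Itgam and Itgax were at the floor.

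The line was read as a dividing population, with 24 of 24 proliferation genes present and summing to 5845, 5860 and 6065 CPM. Ccnd1, cyclin D1, had 699.4, 684.9 and 832.9 CPM, Pcna, the replication clamp, 377.2, 366.2 and 404.1 CPM and Rrm2, a subunit of ribonucleotide reductase, 267.7, 263.8 and 288.3 CPM. The 12 cell cycle inhibitors and p53 and Rb genes were present as well. Cdkn2a, which encodes p16 and p19ARF, had 166.6, 170.1 and 182.2 CPM, Trp53 202.8, 200 and 220.3 CPM and the p53 target Mdm2 167.2, 164.7 and 208 CPM. Xist and Tsix, the RNAs of X inactivation, had 0 counts, while the Y-linked Ddx3y, Eif2s3y and Uty were present at 18.6, 5.72 and 2.38 CPM, Kdm5d was low with 26, 25 and 28 counts, and Sry had 0. Htt, the gene modified in the HD lines, had 103.7, 103.2 and 93.0 CPM and ranked 2568th by CPM. Counts by gene do not show the length of its glutamine repeat, so they are no check of the genotype labels.

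Control 3 stood somewhat apart from the other control libraries. Over 11207 genes the squared difference between controls 1 and 2 averaged 2.39 times that of counting error. For controls 1 and 3 the average was 12.1, and for controls 2 and 3 it was 13. Taken from the median gene, the ratios were lower, at 1.64, 4.28 and 5.06 in the same order. The distance was small in size, since of 9016 genes of at least 10 CPM only 35 had a highest library over 1.5 times the lowest, 3 were over 2 times and the median ratio was 1.08. In all 35 genes control 3 was the extreme library, the highest in 13 and the lowest in 22. The 10 largest ratios belonged to Sertm1, the natriuretic peptide clearance receptor Npr3, the collagen chains Col5a3 and Col6a3, Nat8l, Ctsw, Bcl6b, Tnrc6b, the oncostatin M receptor Osmr and Gpr149. Sertm1 had 18.5, 17.0 and 46.7 CPM, a ratio of 2.74. Npr3 had 18.0, 18.6 and 7.84 CPM and Col5a3 52.1, 48.4 and 23.2 CPM, ratios of 2.37 and 2.24.

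The distance of control 3 followed gene groups. Of the 27 extracellular matrix genes of at least 10 CPM, control 3 was lowest in 25, with a median change of -13.2% against the mean of controls 1 and 2, and of 83 ribosomal protein genes it was highest in 80, with a median of 14.1%. It was lowest in 18 of 23 fibroblast and mesenchymal genes and in 6 of 6 pericyte and smooth muscle genes, and highest in 5 of 5 HOX genes. Over all 9016 genes it was highest in 3602 and lowest in 3843, with a median change of -0.276%. Neural progenitor genes were divided, with control 3 highest in 4 and lowest in 3 of 9. The cyclin-dependent kinase inhibitor Cdkn1a had 76.6, 77.3 and 119 CPM. The cause was not tested. Without control 3 the number of present genes was 11494, and the count of present members was as given above for the lists of progenitor genes, striatal factors, fibroblast genes, mesenchymal factors, pericyte genes and HOX genes.

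**Figure D4:**
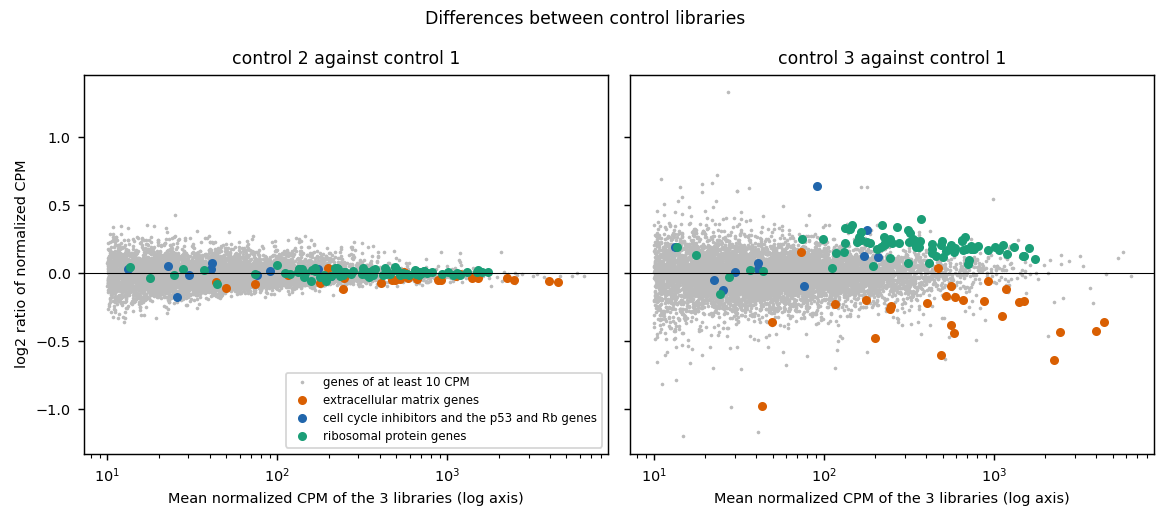
Log2 ratio of normalized CPM between control libraries against mean CPM (log axis) for genes of at least 10 CPM in grey, with 3 gene lists in colour; left, control 2 against control 1, right, control 3 against control 1. In the right panel extracellular matrix genes lie below 0 and ribosomal protein genes above 0, whereas both lie close to 0 in the left panel.

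To see where the control profile differed from the HD lines, the control libraries were compared with each over 13508 genes (edgeR's quasi-likelihood test, p-values adjusted by Benjamini-Hochberg, threshold 0.05). Both comparisons use the same control libraries, so their values are given side by side. Against HD-het 4236 genes (31.4%) were higher and 4561 (33.8%) lower in control, and against HD-homo 3908 (28.9%) were higher and 4002 (29.6%) lower. The median log2 difference of all genes, control minus HD line, was -0.0251 against HD-het and -0.00772 against HD-homo. With such shares of all genes called, a list is described below by its counts and its median, and single genes by size.

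HOX genes differed from HD-het mostly in 1 direction, with 22 of 25 tested members higher and 2 lower in control. The shares of all genes were 31.4% and 33.8%, and the median log2 difference of the list was 3.79. The filter keeps genes that are high in 1 line alone, and 11 of 39 HOX genes were present in control. With at least 10 counts in every library fewer were higher in control, as given in the last section. Hoxb9 had 3.33, 3.32 and 4.31 CPM in HD-het, below all control libraries. Against HD-homo 5 HOX genes were higher and 15 lower, beside 28.9% and 29.6% of all genes, with a median of -0.65. There Hoxb9 had 84.3, 96.9 and 72.6 CPM, above all control libraries. Of 13 tested progenitor genes 3 were higher and 7 lower in control than in HD-het (median -0.31), and 9 were higher and 3 lower than in HD-homo (median 1.62). Nes had 856.6, 841.5 and 820.5 CPM in HD-het and 34.3, 21.4 and 29.7 CPM in HD-homo, so that the control libraries lay between the HD lines. Sox2 had 85.2, 84.4 and 79.1 CPM in HD-het and 5.79, 5.66 and 4.98 CPM in HD-homo, below the control libraries in both.

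Of 27 tested fibroblast and mesenchymal genes, 5 were higher and 17 lower in control than in HD-het (median -1.02), and 4 were higher and 15 lower than in HD-homo (median -0.48). For this list and those that follow, the shares of all genes were 31.4% higher and 33.8% lower against HD-het. Against HD-homo the shares were 28.9% and 29.6%. Pericyte and smooth muscle genes were higher for 0 and lower for 9 of 11 against HD-het (median -1.24). Against HD-homo 4 were higher and 5 lower (median -0.0718). Acta2 had 5639, 5300 and 4931 CPM in HD-het and 116.3, 57.7 and 101.5 CPM in HD-homo, with the control libraries between them. Ribosomal protein genes were higher in control for 81 of 84 against HD-het (75 without control 3, the highest control library for 80 of 83 of them), with a median of 0.49. Against HD-homo 13 were higher and 10 lower (median -0.0284), counts that rested on single libraries. They became 5 and 16 without control 3, 7 and 5 without control 1, 8 and 5 without control 2 and 4 and 16 without HD-homo 2, and 6 were lower without HD-homo 1. Cytoskeleton genes were higher for 14 and lower for 27 of 48 against HD-het (median -0.261). Against HD-homo 35 were higher and 3 lower (median 0.358). Striatal lineage factors were higher for 3 and lower for 7 of 14 against HD-het (median -0.331). Against HD-homo 5 were higher and 5 lower (median -0.0456). Medium spiny neuron genes were higher for 2 and lower for 4 of 8 against HD-het (median -0.252). Against HD-homo 1 was higher and 2 were lower of 8 (median 0.111). With so few members tested, these counts are not read as a result about either list. The Y-linked genes Ddx3y and Eif2s3y were read in all 3 lines. Apart from the ribosomal protein genes and the medium spiny neuron genes higher against HD-homo (2 without control 3), leaving out any 1 library changed no list count in this and the preceding paragraph by more than 1.5 times.

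Among identity, transcription factor and receptor genes of at least 10 CPM in the higher line, Pax2 differed most in the direction of the control line against HD-het. It had 1, 2 and 2 counts in HD-het, a ratio of 671 (95% counting interval 287 to 2070, from summed counts) and a log2 difference of 9.28 ± 0.297 (SE; adjusted p = 1.75e-09, edgeR's quasi-likelihood test). Next came the collagen chain Col5a2 with 558 ± 80.5 against 4.72 ± 0.828 CPM, the adhesion molecule gene L1cam with 11.9 against 0.316 CPM, the neuronal RNA-binding protein gene Elavl2 with 18.8 against 0.780 CPM, Col1a2 with 73.4 against 3.15 CPM and Stmn2 with 53.7 against 2.71 CPM. Lower in control were the AMPA receptor subunit Gria3 (0.510 against 22.7 CPM, log2 difference -5.46), calponin Cnn1 (1.66 against 39.5), the TNF receptor Tnfrsf1b (2.03 against 42.0), the collagen-binding integrin Itga1 (2.21 against 37.6), the protease receptor F2rl1 (4.61 against 75.9) and the collagen-crosslinking enzyme Lox (199 against 2783). These genes were taken from those past the threshold whose control and HD-het libraries did not overlap. The absence of overlap is thus a condition of the choice and not a result.

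Among the same identity, transcription factor and receptor genes, the largest differences against HD-homo in the direction of control included Sall1, Lhx1 and Pax6. Many members of these lists are developmental factors by choice, so the kind of gene named is not a result. Genes outside the lists were not ranked. Sall1 had 0, 1 and 1 counts in HD-homo, a ratio of 1740 (95% counting interval 481 to 14400), and Lhx1 had 0, 3 and 1, a ratio of 1420 (555 to 5220). Pax6 had 32.1 ± 0.605 CPM in control and 0.132 ± 0.0327 in HD-homo (log2 difference 7.91 ± 0.124, adjusted p = 4.99e-12, edgeR's quasi-likelihood test). Elavl2 had 18.8 against 0.0792 CPM, Sox11, a factor of immature neurons, 69.8 against 0.741 CPM and Sox6 42.9 against 0.565 CPM. Among the genes lower in control, S1pr3, a receptor for sphingosine-1-phosphate, had 2, 2 and 0 counts in control, a ratio of 589 (230 to 2170) in the direction of HD-homo. The mesenchymal repressor Hic1 (0.145 against 50.1 CPM) and the nuclear receptor Nr1h5 (0.148 against 45.0) were also lower in control. So were the integrin Itga2 (0.0739 against 17.0) and the PDGF receptor Pdgfra (5.21 against 307). Here too the absence of overlap between the lines was a condition of the choice. Htt was higher in control than in HD-het (62.3 ± 1.51 CPM) and HD-homo (20.2 ± 1.29 CPM), by 0.68 and 2.31 on the log2 scale, with adjusted p = 4.39e-06 and 3.42e-10 by edgeR's quasi-likelihood test.

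**Figure D5:**
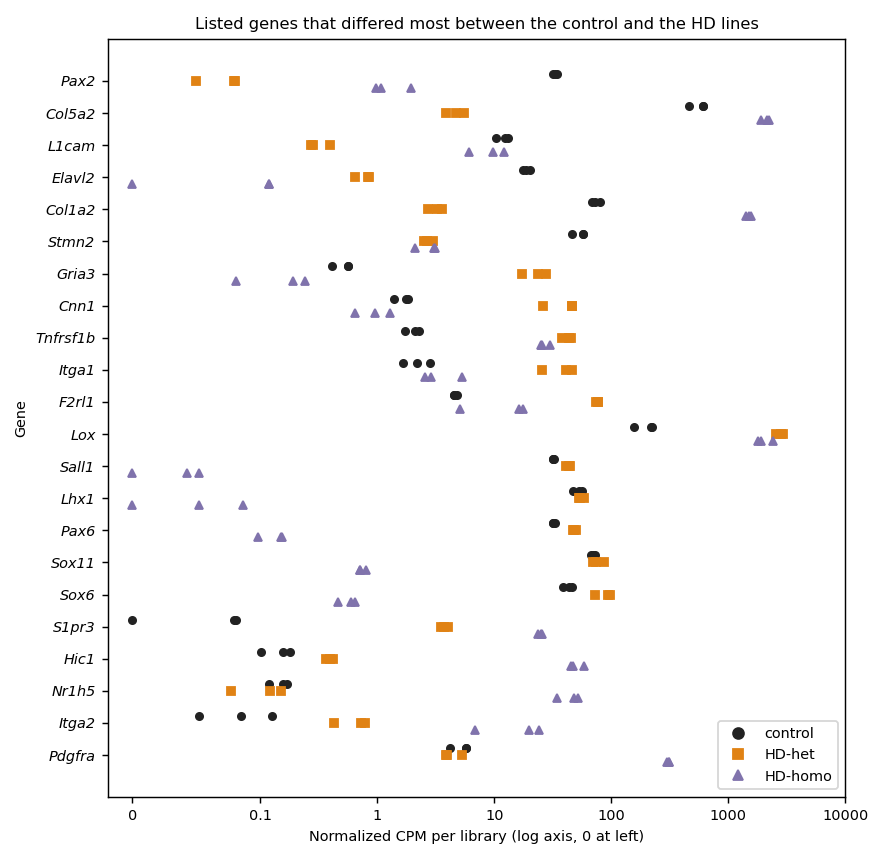
Normalized CPM per library (log axis, 0 counts at the left edge) of genes with large differences between control and either HD line. The differences are among the largest within the identity, transcription factor and receptor lists. Circles are control, squares HD-het and triangles HD-homo libraries. Sall1, Lhx1, Pax6, Sox11 and Sox6 lie near each other in control and HD-het and far lower in HD-homo, while Pax2, Col5a2 and Col1a2 are lowest in HD-het.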

How the data were processed

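Total RNA of the 3 lines was enriched for poly(A) RNA and made into strand-specific libraries with the NEBNext Ultra II directional kit. The authors deposited 1 table of whole-number counts per gene symbol for the 9 libraries, with replicates kept separate and totals that differ between libraries. The submitters' processing notes name cutadapt, Bowtie 1.1.2, RSEM 1.3.0, DESeq2 and the builds GRCm38.p5 and mm10. Their settings, the annotation and the strand used in counting are not given in the sources used here, nor is whether the counts are rounded RSEM estimates. All 9 sample columns were used, and no library was dropped.

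The analysis used edgeR 4.0.16 in R 4.3.3 (filterByExpr defaults with a minimum count of 10 and the line as group, 13508 genes kept, TMM, 1 mean per line, glmQLFit and glmQLFTest on all 9 libraries, Benjamini-Hochberg adjustment). Normalized CPM is the count over the TMM-scaled total of the tested genes. Length-scaled CPM used the union of exons in GENCODE vM21 on GRCm38 for the 27338 listed genes with a match by symbol, which took 99.1% of the control counts, and levels of different genes are compared on it, apart from the ranking by share of counts. Promoter windows came from RefSeq (GRCm38.p6), the first window of each gene, and a window is matched by symbol. Totals of 29507665 to 33602679 counts per control library set the floor, which covers counting error only. Scripts were tested on simulated data.

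The 47 gene lists and the description of this line were chosen with earlier results of these data known. Genes were named by rule. It took the 25 highest by CPM and 15 highest per length, up to 6 present members per length and up to 6 at the floor in each list, all members of the lists of striatal factors, medium spiny neuron genes, progenitor genes and X-inactivation and Y-linked genes, and single present members. It also took the 10 genes most different between control libraries, the 6 largest changes each way per comparison among identity, factor and receptor lists, and Htt. Some genes that the rule takes are not reported here, while list counts include them. Other genes named, such as Vcl, Dpt, Gfap, Mycn, Rpl3l, Grin1, Ntrk2 and Col3a1, were added after their values were seen. Alternatives were other scalings, filters, thresholds of presence, DESeq2 1.42.0, a replicate block and leaving out each library.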

Additional observations from a re-analysis of the deposited data

How the results depend on the processing

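The number of present genes was 11425 and lay between 9917 (at least 5 CPM in each library) and 13188 (more than 3 counts in each) over 10 alternatives. Of the list counts the threshold of presence mattered most for genes near it. At 5 CPM, 0 medium spiny neuron genes, 8 pan-neuronal genes and 6 HOX genes were present, and with more than 3 counts 8 medium spiny neuron genes and 25 HOX genes were. The calls against HD-het (8797) and HD-homo (7910) became 2490 and 2574 when a log2 difference of at least 1 was also asked for, which is fewer by construction. They ranged from 7865 to 8574 and from 6842 to 7670 when 1 library was left out, and DESeq2 gave 8691 and 7829. The log2 differences of named genes kept their direction and call in all 351 values recomputed under the alternatives run. Genes named for the size of their change had been chosen past the threshold, so this says little about other genes. Those with fewer than 10 counts in a library, such as Pax2, could not be recomputed under the filter of at least 10 counts in every library. With at least 10 counts in every library, which removes genes silent in 1 line, the HOX genes higher in control than HD-het were 7. Over all genes 3872 of the 11739 tested under that filter were higher in control. How many HOX genes passed the filter is not given here, so the 7 is not read as a share. Replicate numbers are shared by the lines, but same-numbered libraries deviated together with r between 0.00788 and 0.122, not above 0.1 in every pair, so the numbers were not taken to pair them. With the replicate number as a block the calls were 9160 and 8372. In every pair the correlation with the own number exceeded the mean of that with other numbers, which is a hint from the data and not from the design. At this depth a level under 0.0892 to 0.101 CPM could not be judged in the control libraries.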
